A study of Mus musculus with 5 samples.

Results

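The genes described here are 35 interferon response genes, listed by symbol, and all 35 were among the 17638 genes of the deposited table. They were measured as polyadenylated RNA in CD31-positive cells of 2-month-old C57BL/6 mice, taken from the heart 5 days after an experimental myocardial infarction. Of the 5 libraries, 3 came from control mice and 2 from mice with a conditional deletion of the transcription factor gene Tbx1, labelled Tbx1cko, and infarction, strain and age were common to both groups. The series calls the knockout endothelial, and its labels name neither the Cre driver nor the deleted exons. Nothing in the labels says that the replicates were different mice, so the p-values reflect no more than the spread from library to library, which may be technical.

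Interferons are secreted proteins made when a cell senses viral or misplaced nucleic acid. Type I interferons signal through Ifnar1 and Ifnar2 and the kinases Jak1 and Tyk2 to a complex that holds Stat2 and Irf9 and binds the interferon-stimulated response element (ISRE). Interferon gamma signals through Ifngr1 and Ifngr2 to factors that bind the gamma-activated sequence (GAS). In the infarcted heart, DNA released from dying cells is one known trigger of this response in macrophages, and endothelial cells carry both kinds of receptor.

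RefSeq promoter windows (GRCm38.p6, 250 bases before the annotated start and 50 after) were at hand for 25 of the 35 members. An ISRE-type match, 2 GAAA runs with any 2 bases between them, searched on both strands, lay in the windows of 16 of the 25 (64%). The same match lay in the windows of 3.99% of all 27025 genes of the promoter table and of 3.87% of the 10355 genes that were also tested for expression. A GAS-type match, TTC and GAA with any 3 bases between them, lay in 7 of the 25 members (28%) and in 9.55% of all genes. Both motifs were present in 5 members, and in Bst2 they overlapped, the GAS-type match beginning 136 and the ISRE-type match 130 bases before the start. A match is a run of letters and not a measured binding site.

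Windows of the 4 members with the smallest unadjusted p among those with an ISRE-type match are printed 5′ to 3′ on the gene's strand, with the matches in capitals. Ifit3 lies at chr19:34583279-34583578 (plus strand), Ifit3b at chr19:34607707-34608006 (plus), Oas3 at chr5:120777610-120777909 (minus) and Ifih1 at chr2:62646206-62646505 (minus). The 30 bases around the triple match of Isg15, at chr4:156200871-156200900 (minus), are shown for their tandem repeat and were chosen after the matches were seen.
Ifit3: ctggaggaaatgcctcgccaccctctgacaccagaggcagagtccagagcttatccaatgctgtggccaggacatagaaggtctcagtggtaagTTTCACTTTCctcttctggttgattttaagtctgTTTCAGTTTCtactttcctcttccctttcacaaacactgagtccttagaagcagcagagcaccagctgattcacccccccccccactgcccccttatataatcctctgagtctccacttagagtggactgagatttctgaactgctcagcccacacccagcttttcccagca
Ifit3b: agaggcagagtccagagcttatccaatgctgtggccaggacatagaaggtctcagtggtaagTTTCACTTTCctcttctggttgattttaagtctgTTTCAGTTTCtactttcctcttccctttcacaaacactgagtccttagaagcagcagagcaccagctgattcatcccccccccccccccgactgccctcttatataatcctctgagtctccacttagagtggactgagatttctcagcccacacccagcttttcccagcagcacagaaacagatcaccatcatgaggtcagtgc
Oas3: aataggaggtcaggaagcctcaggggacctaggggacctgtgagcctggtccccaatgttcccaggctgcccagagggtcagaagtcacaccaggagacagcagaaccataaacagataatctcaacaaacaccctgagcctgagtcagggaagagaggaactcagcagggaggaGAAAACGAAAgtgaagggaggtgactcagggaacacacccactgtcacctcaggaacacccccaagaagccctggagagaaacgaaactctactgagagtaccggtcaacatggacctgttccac
Ifih1: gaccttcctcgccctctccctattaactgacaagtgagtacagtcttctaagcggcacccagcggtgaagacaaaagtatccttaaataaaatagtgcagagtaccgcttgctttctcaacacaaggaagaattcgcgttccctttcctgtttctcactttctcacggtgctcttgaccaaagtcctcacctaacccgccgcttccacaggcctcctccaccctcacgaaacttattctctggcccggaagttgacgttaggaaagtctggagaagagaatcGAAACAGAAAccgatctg
Isg15: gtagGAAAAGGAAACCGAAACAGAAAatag

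Ifit3 and Ifit3b each held 2 reverse-strand matches, and their windows shared an identical run of 169 bases that covers both. In Isg15 the 3 matches began 78, 72 and 66 bases before the start, each overlapping the next. Oas3 held 1 match, 75 bases before the start. The Ifih1 match began at base 33 after the start, inside the transcribed part. Over all members with a window there were 25 ISRE-type matches, 21 of which began within 160 bases before the start and 2 after it, as the map of motif positions shows. Windows of Oasl1, Oasl2, Cmpk2, Irf7, Dtx3l, Ifi44 and Xaf1 held neither motif.

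**Figure D1:**
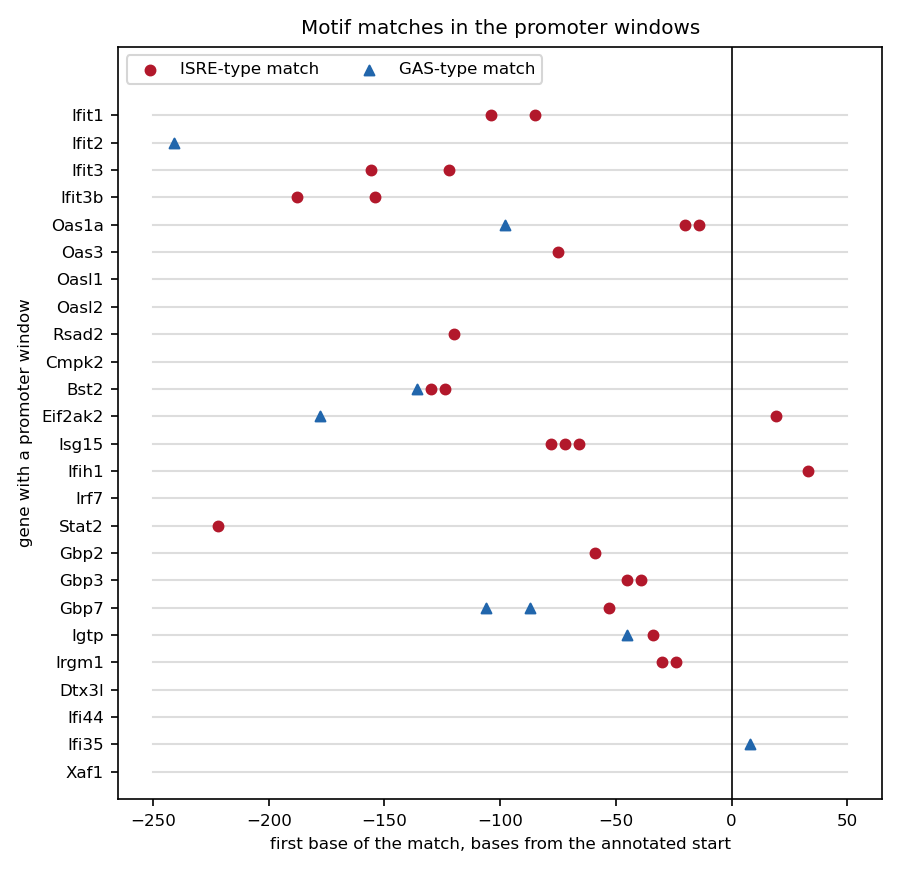
Position of ISRE-type matches (red circles) and GAS-type matches (blue triangles) in the promoter windows of the 25 members that have one. The horizontal axis is the first base of the match in bases from the annotated start (0 line), each grey line is a window, and 21 of 25 ISRE-type matches begin within 160 bases before the start.

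Recovered reads came to between 14689782 and 18617284 per library. Tbx1 itself counted 64.4, 72.7 and 69.6 normalised reads in the 3 controls against 18.3 and 17.3 in Tbx1cko, which goes with the labels. Control replicate 2 stood apart. Across genes, the Pearson correlation of its log2 values with the other libraries was 0.859 to 0.889, against 0.98 to 0.988 among those 4 (genes are not independent replicates). All 8 endothelial markers were detected in all libraries. Their summed normalised count was 156090 to 200430 in controls and 143170 to 151930 in Tbx1cko, so both Tbx1cko sums lay below all controls. Gene by gene this held for 5 of the 8, beside 13.9% of all genes. Erg was above all controls in both Tbx1cko libraries, and Pecam1 and Emcn overlapped. The 10 macrophage and monocyte markers summed to 63147 to 99424 in controls and 95461 to 97417 in Tbx1cko, with Ccr2 at 0 in control replicate 2. Of these 10, 3 (Cd68, Mrc1 and Ccr2) were higher in Tbx1cko without overlap, beside 14.2% of all genes, and 0 were lower without overlap. Both kinds of cell can respond to interferon, and in bulk libraries fewer cells of a type and less RNA per cell cannot be told apart. The groups also did not overlap in the sums of the 5 neutrophil markers in the table (587 to 930 in controls and 1217 to 1265 in Tbx1cko), of the 6 platelet markers (1375 to 2385 and 3239 to 3702) and of the 6 mural cell markers (37694 to 52766 and 33807 to 36456). Gene by gene, 4 of the 5 neutrophil and 2 of the 6 platelet markers were higher without overlap, beside 14.2% of all genes. So were 2 of the 4 general leukocyte markers and 2 of the 5 dendritic cell markers tested. In both of these lists 0 were lower without overlap, and the sums overlapped. Of the 6 mural markers 5 were lower without overlap, beside 13.9%. The part of these cells in the differences between the groups was not tested.

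The fewest recovered reads behind a member in any library were 60, for Iigp1 in control replicate 2. Levels of different genes are compared as normalised counts per kilobase of exon, over the 4 libraries without control replicate 2. Bst2, or tetherin, which ties budding viruses to the cell surface, was highest at 4077 ± 321 (SD, n = 4). Isg15, a ubiquitin-like protein that is joined to other proteins, followed at 1288 ± 83.0, the guanylate-binding protein gene Gbp2 at 923 ± 62.4 and Rsad2 at 761 ± 31.0. The lowest were Zbp1 at 111 ± 8.10, Mx1 at 60.6 ± 5.73 and Oas3 at 37.8 ± 5.24, again per kilobase. The order is a description, and for 27 of the 34 neighbouring pairs in it the ranges over the 4 libraries overlapped. The pairs that did not were Bst2 and Isg15, Isg15 and Gbp2, Gbp2 and Rsad2, Gbp3 and Ifit3, Oasl2 and Cmpk2, Zbp1 and Mx1, and Mx1 and Oas3.

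**Figure D2:**
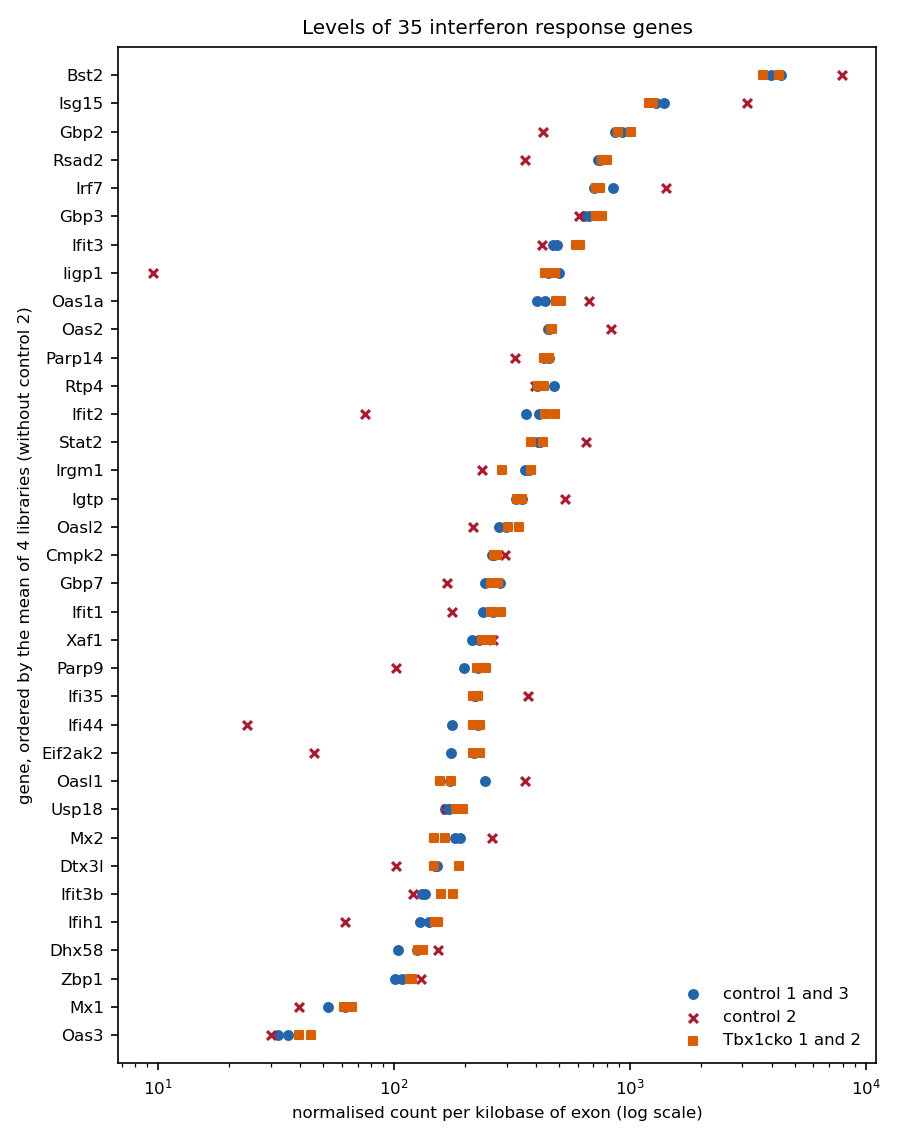
Normalised count per kilobase of exon (log scale) of the 35 members in each library, ordered by the mean of the 4 libraries without control replicate 2. Blue circles are control replicates 1 and 3, orange squares the 2 Tbx1cko libraries and red crosses control replicate 2, which lies apart for most genes, most of all for Iigp1, while the other 4 libraries sit close together from Bst2 at 4077 to Oas3 at 37.8.

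Below, the values of a gene are its normalised reads in control replicates 1, 2 and 3 and, after the word against, in Tbx1cko replicates 1 and 2. Control replicate 2 lay outside the range of the other 4 libraries in 34 of 35 members, below it in 20 and above it in 14, beside 82.6% of all genes tested. Iigp1, an immunity-related GTPase that attacks vacuoles holding pathogens, counted 2625, 55.2 and 2918 against 2541 and 2816. On the log2(normalised count + 1) scale control replicate 2 was 49.3-fold below the mean of the other 2 controls there, and the 4 other libraries lay within 1.15-fold of each other. Isg15 went the other way, at 1060, 2375 and 977 against 945 and 914, so that control replicate 2 was 2.33-fold above the other controls on the same scale. In 9 members control replicate 2 differed more than 2-fold from the mean of the other controls, namely Ifit2, Rsad2, Eif2ak2, Isg15, Ifih1, Gbp2, Iigp1, Parp9 and Ifi44 (25.7%), beside 28.3% of all genes.

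The deviation of control replicate 2 went with the base composition of the transcripts. Members ran from 39.4% GC (Iigp1) to 56.9% GC (Bst2). Of the 24 members below 50% GC, control replicate 2 was lower than the mean of controls 1 and 3 in 20, and of the 11 others it was higher in 10. The exception among those 11 was Oas3, at 54.6% GC. Across the 35 members the Spearman rho between GC content and this deviation was 0.859, and 0.815 across the 13748 genes tested with a GC value. These are descriptions over genes of the same libraries. The difference between the groups followed GC content as well, with a rho over the members of -0.768 with all libraries and -0.218 without control replicate 2, beside -0.732 and -0.312 over all genes. Control 1 minus control 3 also rose with GC content, with a rho of 0.531 over the members and 0.34 over all genes. Between controls 1 and 3 the members' median absolute log2 difference was 0.10, and between the Tbx1cko libraries it was also 0.10. Between control replicate 2 and the mean of the other controls it was 0.65.

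**Figure D3:**
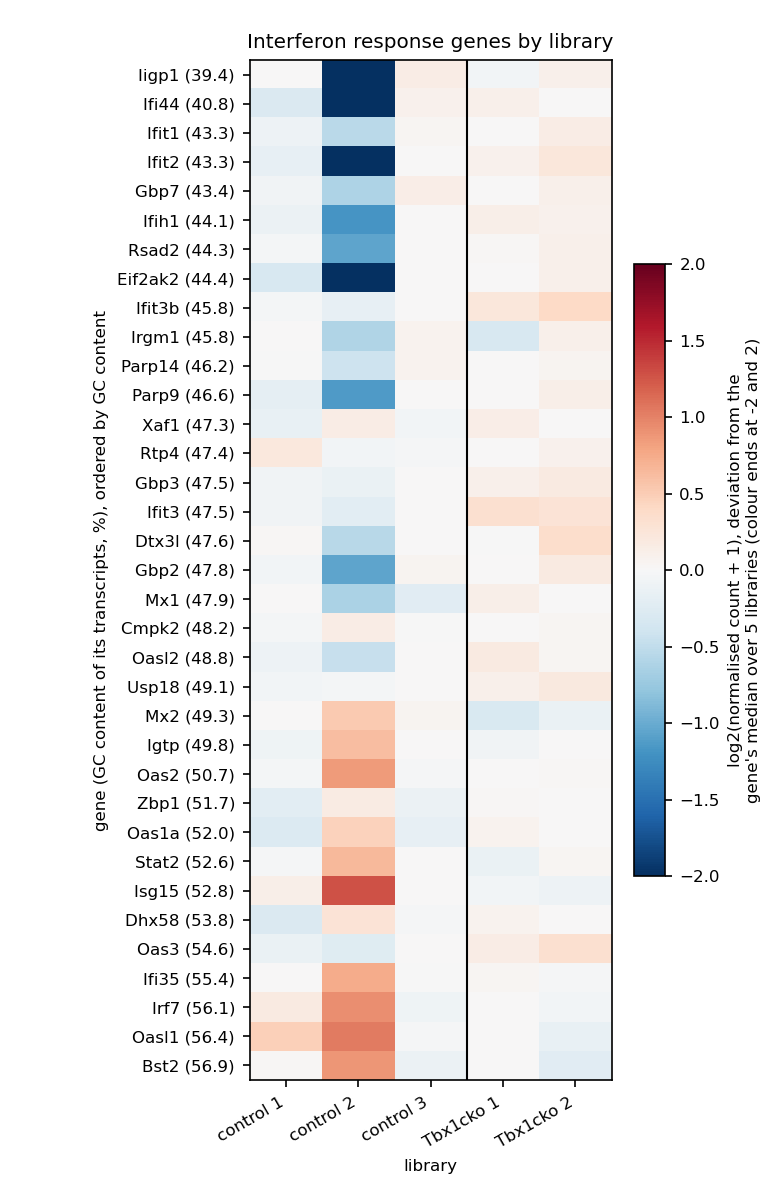
Deviation of each member in each library from the gene's median over the 5 libraries, on log2(normalised count + 1), with genes ordered by the GC content of their transcripts from 39.4% (Iigp1, top) to 56.9% (Bst2, bottom). Control replicate 2 is blue (lower) for most of the upper genes and red (higher) for most of the lower ones, and the other 4 libraries stay pale; colours end at -2 and 2.

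**Figure D4:**
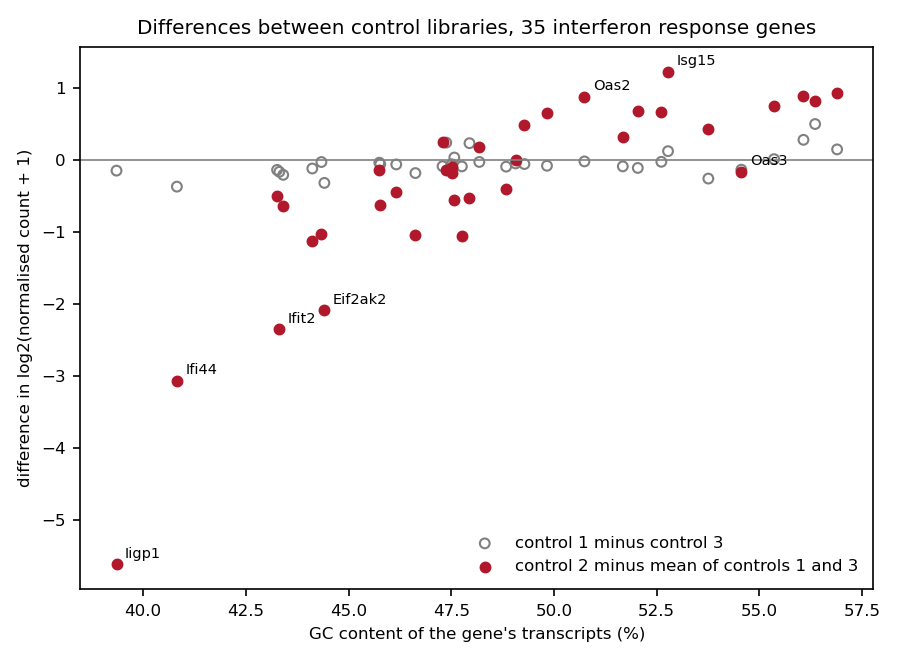
Difference in log2(normalised count + 1) between control libraries against the GC content of the transcripts, 1 point per member. Filled red points are control replicate 2 minus the mean of controls 1 and 3 and run from -5.62 (Iigp1) to 1.22 (Isg15). Open grey points, control 1 minus control 3, lie nearer to the zero line and also rise with GC content (Spearman rho 0.531).

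The comparison of Tbx1cko with control asked whether the interferon response of these cells differed when Tbx1 was deleted. No member passed the threshold, an adjusted p of 0.05 in limma over the 14339 genes whose normalised counts averaged 10 or more. Among the 35 members, 0 passed and 0 had an unadjusted p under 0.05, beside 0% and 1.74% of all genes tested. Without control replicate 2 it was 0 and 1 (Ifit3), beside 0.0209% and 7.46%. On the recovered reads DESeq2 also called 0 members, beside 0.0279% of all genes, and 0 without control replicate 2, beside 0.888% of the 8779 genes to which it then gave an adjusted p, all members among them. edgeR called 0 members in both, beside 0% and 0.00697% of all genes. The lowest adjusted p of a member was 0.762 with all libraries and 0.569 without control replicate 2, both in limma.

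The differences were small once control replicate 2 was left out. Log2 differences are Tbx1cko minus control on log2(normalised count + 1), and the fit without that library is called the 4-library fit. They ran from -0.58 (Oasl1) to 1.83 (Iigp1) with all 5 libraries and from -0.30 (Oasl1) to 0.33 (Ifit3b) in the 4-library fit. The unadjusted 95% intervals of the 4-library fit lay within a 2-fold change in either direction for all 35 members, with outermost bounds of -0.70 (Oasl1) and 0.69 (Ifit3b), beside 79.6% of all genes tested. With all 5 libraries this held for 18 of 35 members, beside 38.3% of all genes. An interval that includes 0 does not show that the groups were alike.

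Most of the small differences pointed upward in Tbx1cko. With all libraries 24 of 35 members were higher by any amount (68.6%), beside 52.4% of all genes, and in the 4-library fit it was 25 (71.4%), beside 53.3%. The median log2 difference of the members was 0.18 with all libraries and 0.11 in the 4-library fit, beside 0.03 and 0.02 over all genes tested. After a correction for GC content it was 0.01 with all libraries and 0.06 in the 4-library fit. With all libraries 19 members were then higher and 16 lower, beside 6682 and 7066 of all genes with a GC value. In the 4-library fit it was 25 and 10, beside 7173 and 6575. The groups did not overlap for 9 members that were higher in Tbx1cko (25.7%), beside 14.2% of all genes, and for 2 that were lower (5.71%), beside 13.9%. With control replicate 2 left out this was 15 higher (42.9%), beside 19.7% of all genes, and again 2 lower (5.71%), beside 17.8%. The members share libraries and regulators, so these shares are not independent observations.

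**Figure D5:**
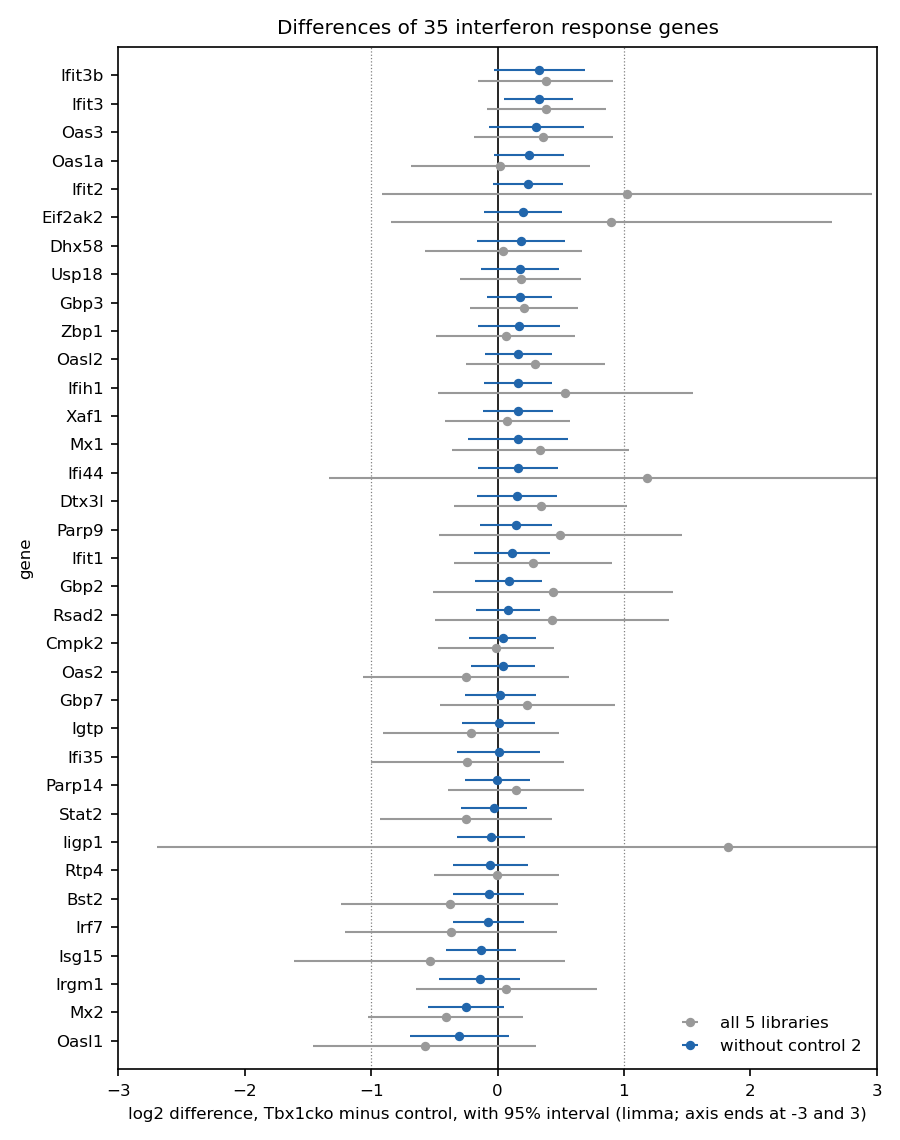
Log2 difference between Tbx1cko and control for each member with its 95% interval from limma, with all 5 libraries (grey) and without control replicate 2 (blue), ordered by the latter. Blue points lie between -0.30 and 0.33 with intervals inside the dotted lines at -1 and 1, while the grey intervals of Iigp1, Ifi44, Ifit2 and Eif2ak2 are wide and run past the axis for Iigp1 and Ifi44.

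The IFIT proteins bind foreign RNA and block its translation. Their 4 genes lie side by side on chromosome 19, from 34550694 to 34650009 (GRCm38), and all 4 were higher in Tbx1cko by amounts that missed the threshold, except that Ifit1 was lower after GC correction. Ifit3 counted 823, 742 and 860 normalised reads against 1076 and 1035, with both Tbx1cko values above all controls. Its log2 difference was 0.39 (SE 0.189, limma adjusted p = 0.762), and 0.33 (SE 0.124, adjusted p = 0.569) in the 4-library fit. For Ifit3b the counts were 262, 240 and 270 against 316 and 356, again without overlap, and the log2 difference was 0.38 (SE 0.213). These 2 genes are close copies, and 51.2% of the 50-base stretches of the Ifit3 transcripts also occur in another gene, mostly in Ifit3b, so the split of reads between them is uncertain and they are not separate observations.

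Ifit2, at 43.3% GC, stood at 1432, 296 and 1610 normalised reads against 1708 and 1887. The groups did not overlap, and the log2 difference was 1.03 (SE 0.774) with all libraries and 0.24 (SE 0.125) in the 4-library fit. Ifit1 counted 632, 469 and 697 against 681 and 757. Control replicate 3 lay above the first Tbx1cko library there, and the log2 difference was 0.28, or 0.11 in the 4-library fit. After GC correction with all libraries the Ifit1 difference was -0.34.

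The OAS enzymes sense double-stranded RNA and make a short oligoadenylate messenger that activates RNase L. Oas2, Oas3 and Oas1a lie together on chromosome 5 (120730333 to 120907521), and the related Oasl2 and Oasl1 at lower coordinates (114896936 to 114937915). Oas3 counted 227, 212 and 250 normalised reads against 279 and 313, without overlap, and its log2 difference was 0.36 (SE 0.220), or 0.31 in the 4-library fit. Oasl2 was at 1769, 1375 and 1893 against 2155 and 1948, also without overlap, and its difference was 0.30, or 0.16 in the 4-library fit. In Oas1a and Oas2 control replicate 2 was the highest library. Oas1a was at 758, 1265 and 821 against 960 and 917, and its log2 difference was 0.02, or 0.25 (SE 0.127) in the 4-library fit. Oas2, at 1994, 3691 and 2029 against 2052 and 2087, was at -0.25 and, in the 4-library fit, at 0.04. Of the 50-base stretches of Oas1a, 57.6% occur in another gene, mostly Oas1g, so its count is uncertain.

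Oasl1, whose product in mice restrains translation of Irf7, had the lowest difference of the members. Its counts were 633, 939 and 449 normalised reads against 455 and 410. Control replicate 3 lay between both Tbx1cko values, so the groups overlapped, and the log2 difference was -0.58 (SE 0.351), or -0.30 (SE 0.178) in the 4-library fit. It also varied most among the 4 libraries other than control replicate 2, by 1.54-fold from lowest to highest, where the median member varied by 1.199-fold.

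Among the other antiviral effectors, Mx2 stood lower and without overlap. The Mx genes encode dynamin-like GTPases that trap viral particles, and GENCODE lists Mx2 as a polymorphic pseudogene in this reference strain. Mx2 counted 656, 939 and 685 normalised reads against 534 and 597, and its log2 difference was -0.41 (SE 0.245, limma adjusted p = 0.762), or -0.25 (SE 0.137) in the 4-library fit. Its neighbour Mx1, on chromosome 16 as Tbx1 is, was at 234, 149 and 199 against 252 and 232, with overlap. The Mx1 difference was above 0, opposite to that of Mx2, and neither passed the threshold.

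Rsad2, or viperin, makes a chain-terminating nucleotide, and Cmpk2, its neighbour on chromosome 12 (26442746 to 26479837 for both), is a mitochondrial nucleotide kinase. Rsad2 counted 3166, 1561 and 3240 normalised reads against 3307 and 3480. Its groups did not overlap, and the log2 difference was 0.43 with all libraries and 0.08 in the 4-library fit. After GC correction these were -0.08 and -0.01. Cmpk2 was at 1080, 1229 and 1105 against 1110 and 1140, and its difference was -0.01, or 0.04 in the 4-library fit. For Bst2, at 3952, 7141 and 3581 against 3873 and 3319, the log2 difference was -0.38, or -0.07 in the 4-library fit. Eif2ak2, the kinase PKR that halts translation on sensing double-stranded RNA, was at 890, 234 and 1114 against 1109 and 1188. Its difference was 0.90 (SE 0.696), or 0.20 (SE 0.140) in the 4-library fit, and the groups overlapped.

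In the ISG15 system, Usp18, the protease that strips ISG15 from proteins and also damps the type I receptor, held nearly the same value in all 3 controls. It counted 460, 465 and 477 normalised reads against 513 and 548. The groups did not overlap, and the log2 difference was 0.18 in both fits (SE 0.192 with all libraries and 0.140 with 4). Isg15, whose values are given above, was lower in both Tbx1cko libraries than in any control, with a difference of -0.54 (SE 0.429), or -0.13 (SE 0.125) in the 4-library fit.

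The 3 nucleic acid sensors were all higher in Tbx1cko, none past the threshold, although Dhx58 and Zbp1 were lower with quantile normalisation and without control replicate 1. Ifih1, or MDA5, which binds long double-stranded RNA, counted 1056, 505 and 1151 normalised reads against 1248 and 1220, and its log2 difference was 0.54 (SE 0.402), or 0.16 (SE 0.122) in the 4-library fit. Dhx58, or LGP2, its helper, was at 340, 501 and 408 against 434 and 415. Zbp1, a sensor of Z-form nucleic acid that can start necroptosis, was at 357, 461 and 381 against 419 and 412. In all 3 genes both Tbx1cko values were above control replicates 1 and 3.

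Both transcription factors of the list had differences near 0 in the 4-library fit. Irf7, which drives the amplification of type I interferon, counted 3207, 5397 and 2650 normalised reads against 2822 and 2724. Its log2 difference was -0.37 (SE 0.335), or -0.07 (SE 0.128) in the 4-library fit. Stat2 was at 2413, 3856 and 2464 against 2255 and 2535, and its differences were -0.25 and -0.03. The Tbx1cko values of Irf7 lay between those of controls 1 and 3, and those of Stat2 lay on either side of them.

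Interferon-inducible GTPases respond strongly to interferon gamma. Of the 6 on the list, 5 were higher in Tbx1cko with all libraries and 4 in the 4-library fit, beside 52.4% and 53.3% of all genes. After GC correction it was 3 and 2. Gbp7, Gbp3 and Gbp2 form a cluster on chromosome 3 (142530342 to 142638008). Gbp3 counted 2084, 1990 and 2189 normalised reads against 2339 and 2487, without overlap, and its log2 difference was 0.21 (SE 0.171), or 0.18 in the 4-library fit. Gbp2 was at 2176, 1082 and 2323 against 2248 and 2540, and Gbp7 at 1369, 942 and 1585 against 1444 and 1550. Both overlapped, with differences of 0.44 and 0.24, or 0.09 and 0.02 in the 4-library fit. Irgm1, a regulator of the other immunity-related GTPases, was at 2081, 1370 and 2175 against 1674 and 2224, so the Tbx1cko pair spanned the range of controls 1 and 3. Igtp was at 664, 1076 and 705 against 674 and 704. The log2 differences of Irgm1 and Igtp were 0.07 and -0.21, or -0.14 and 0.01 in the 4-library fit. For Iigp1 the difference was 1.83 (SE 1.80) with all libraries and -0.05 (SE 0.122) in the 4-library fit.

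Parp9 and Dtx3l encode partners in 1 ubiquitin ligase complex and lie next to each other on opposite strands of chromosome 16, with 458 bases of exon in common, so that reads of this stretch cannot be assigned without strand. Parp9 counted 967, 499 and 1101 normalised reads against 1097 and 1192, and Dtx3l 871, 582 and 853 against 848 and 1084. The groups overlapped for both. Parp14, a mono-ADP-ribosyltransferase next to them, was at 4027, 3024 and 4217 against 4033 and 4210. Its difference was 0.15 with all libraries and 0.00 in the 4-library fit, with a 95% interval from -0.26 to 0.26. Shared exon bases on the same strand also touch Gbp7 (637 with Gm43802), Rtp4 (296 with Gm45338), Igtp (162 with Irgm2) and Parp14 (110 with Gm49730). Of the 50-base stretches of Gbp7, Igtp and Rtp4, 12.7%, 11.8% and 11.6% occur in another gene. Ifi35, Usp18, Dhx58, Eif2ak2, Irf7, Oasl1 and Gbp2 overlap other annotated genes on the opposite strand.

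Of the remaining members, Ifi44, at 40.8% GC, counted 1078, 145 and 1398 normalised reads against 1419 and 1324. Its log2 difference was 1.18 (SE 1.002), or 0.16 (SE 0.144) in the 4-library fit. Xaf1, an antagonist of the apoptosis inhibitor XIAP, was at 1006, 1234 and 1072 against 1214 and 1112. Rtp4, a receptor chaperone, was at 1014, 843 and 860 against 873 and 923, and Ifi35 at 382, 637 and 380 against 393 and 374. With all libraries the groups overlapped in these last 3 genes, and the log2 differences of the 4-library fit were 0.16, -0.06 and 0.01.

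Of the 36 interferon pathway genes tested, 0 passed the limma threshold, and 0 had an unadjusted p under 0.05 with all libraries. In the 4-library fit 0 passed and 4 had an unadjusted p under 0.05, 2 higher (Ifngr1 and Tlr7) and 2 lower (Socs1 and Socs3), beside the 7.46% of all genes given above. Over the 36 genes the median log2 difference was 0.06, and 0.00 in the 4-library fit. Of the 11 interferon ligand genes on the list, 0 were found by symbol in the deposited table, so they could not be analysed here. All 6 receptor genes were measured. Ifngr1 counted 3582, 2810 and 3315 normalised reads against 4086 and 4169, and its partner Ifngr2 1493, 1371 and 1508 against 1657 and 1635. Both Tbx1cko values were above all controls in each, with log2 differences of 0.36 (SE 0.188) and 0.18. Ifnar1 was at 2679, 2422 and 2841 against 2649 and 2763, with overlap, as was Ifnar2 at 1408, 1518 and 1140 against 1179 and 1164. Il10rb, shared by the interleukin-10 and lambda receptors, was at 1071, 745 and 1089 against 1273 and 1219, and Ifnlr1 was low at 34.8 to 85.5 in the 5 libraries.

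Signalling genes varied in both directions. The transcription factor genes Irf1, Irf8 and Irf3 were at -0.69, -0.51 and -0.32 with all libraries and at -0.35, -0.31 and -0.01 in the 4-library fit. Among the sensors and adaptors, the endosomal RNA receptor gene Tlr7 (41.0% GC) was at 551, 15.6 and 664 against 814 and 1138, without overlap. Its difference was 2.40 (SE 1.67), or 0.67 in the 4-library fit. Tmem173, or STING, was at -0.35 and -0.27, Tbk1 at 0.34 and 0.16, and Tlr9 at -0.26 and -0.31.

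Of the 8 inhibitors measured, the lowest were both SOCS genes, which block the receptor kinases. Socs1 counted 602, 1495 and 455 normalised reads against 345 and 334, below all controls, with a log2 difference of -1.13 (SE 0.529, limma adjusted p = 0.762), or -0.62 (adjusted p = 0.338) in the 4-library fit. Socs3 was at -0.65 and -0.37, also without overlap. At 58.7% and 60.4% GC, both lie at the end of the scale where control replicate 2 was high. After GC correction Socs1 was at -0.76 with all libraries and -0.49 without control replicate 2, and Socs3 at -0.23 and -0.20. The part of GC content in these differences was not tested. Samhd1 was at 0.19 and Ptpn6 at 0.26 with all libraries. None of these passed the threshold.

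In a second list of 56 interferon-induced genes outside the 35, 0 passed the limma threshold. With all libraries 29 were higher and 27 lower, and in the 4-library fit 35 and 21. Of all genes tested, 52.4% and 53.3% were higher. An unadjusted p under 0.05 was seen for 1 of them with all libraries, beside 1.74% of all genes. In the 4-library fit, where again 0 passed, it was seen for 7 that were higher and 1 that was lower. Of all genes tested 7.46% had such a p there, 486 higher and 584 lower. The medians were 0.08 and 0.06, beside 0.03 and 0.02 over all genes. After GC correction with all libraries 24 of the list were higher and 32 lower, with a median of -0.03. With control replicate 2 also left out it was 34 and 22, with a median of 0.05. Slfn2 had the smallest p of these, at 2064, 1545 and 2812 normalised reads against 3685 and 3370, without overlap, with a difference of 0.76 (SE 0.291, limma adjusted p = 0.762), or 0.55 (adjusted p = 0.357) in the 4-library fit. Parp11 was at 0.53, Epsti1 at 0.69 and the chemokine gene Cxcl10 at -0.59, and in the 4-library fit at 0.39, 0.41 and -0.37. In this list an ISRE-type match lay in the windows of 20 of the 44 genes that have one.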

How the data were processed

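The 5 libraries, 3 control and 2 Tbx1cko, were grouped by sample title. TRIzol LS extraction and Illumina TruSeq library kits are given per the labels' protocols. Tools listed per the submitters' processing notes are DESeq, DESeq2 1.20.0, R 3.5.1 and STAR 2.5.2b, and the build listed there is GRCm38 (mm10). Which counter, annotation and strand setting were used is not given in the sources used here. The deposited values are a signal, read counts divided by a size factor of each library by the authors. 100% of values were whole multiples (within 0.01) of the library's smallest value above 0, and whole reads were recovered from them.

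The main test was limma 3.58.1 (R 4.3.3) on log2(normalised count + 1), genotype being its sole term, with a trended prior, 2-sided p-values and Benjamini-Hochberg adjustment over the 14339 genes with a mean of at least 10. A pseudocount of 1 understates changes of low genes. edgeR 4.0.16 and DESeq2 1.42.0 were run on recovered reads. GC content, exon length and positions came from GENCODE M21 (GRCm38), by symbol, with 16741 of 17638 symbols matched. For the GC correction, a loess (span 0.3) against GC content was fitted to the deviations of each library and subtracted. Promoters came from RefSeq. Levels per kilobase use the union of a gene's exons. The fits were checked on simulated counts.

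The members and lists were chosen with earlier results of these data known. Every member is named, and of the other lists all receptors and up to 4 genes with the smallest unadjusted p, with Tbx1; 1 gene named by this rule is not reported here. The alternatives tried were other pseudocounts, filters, scalings, priors and tools, a replicate block, GC correction and leaving out each library.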

Additional observations from a re-analysis of the deposited data

How the results depend on the processing

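No member passed an adjusted p of 0.05 under any of the 20 alternatives, with adjusted p-values of members from 0.246 to 1 over them. The number of genes past the threshold over the whole table was 0 with limma on all libraries, 4 with DESeq2, 3 with the replicate block, 1 with edgeR and 78 with DESeq2 when control replicate 2 was left out, and 0 to 3 when each library was left out in turn (3 without control replicate 2). The median log2 difference of the members, 0.18, became 0.011 with GC correction and 0.055 with GC correction and control replicate 2 left out, and it ran from 0.114 (without control replicate 2) to 0.239 (without control replicate 3) over the libraries left out. Under the other alternatives it stayed within 0.110 of the reported value, the pooled SD over libraries of the members' median deviation. The causes were not tested. The difference of Iigp1 turned from 1.83 to -0.152 with GC correction and control replicate 2 left out. Without control replicate 2 the difference of 7 members had the other sign, and for none of the 7 was it larger than its SE there. GC correction with all libraries also gave 7 members the other sign, and GC correction with control replicate 2 left out gave 11. Tbx1 passed the threshold in DESeq2 with all libraries. The labels do not say that the replicate numbers pair samples, so the numbers were taken as names. Deviations of same-numbered libraries from their group means correlated at -0.0556 and -0.0461. With 2 Tbx1cko libraries their deviations mirror each other, so these values can neither show nor exclude pairing. With the replicate block 0 members passed, and their median was 0.239. Number 3 occurs only among the controls, so the block gives control replicate 3 no weight. Its log2 differences therefore equal those without that library. With 3 and 2 libraries per group, and control replicate 2 among them, 18 of the 35 intervals lay within a 2-fold change.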
